A study of Homo sapiens with 12 samples.

Results

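Of the 9585 regions in a deposited list of RNA peaks (the MetDiff list), 3203 (33.4%, 95% Wilson interval 32.5 to 34.4) were made of 2 or more blocks separated by gaps in the genome. They are described here as multi-block peaks and were chosen by the block count that the list gives for each peak, with no measured value involved. The other 6382 peaks were 1 unbroken block. The study asked which mRNAs of PANC-1 cells, a line established from a carcinoma of the human pancreatic duct, may carry 1-methylguanosine (m1G). Fragmented polyadenylated RNA was bound with an anti-m1G antibody (IP) or sequenced unbound as input. The cells were controls or had been depleted of TRMT5 by siRNA for 4 days. The labels describe siRNA transfection for all cells and do not name the siRNA of the controls. The 12 libraries of experiment 2 formed 4 groups of 3, with input and m1G IP libraries from control cells (WT control) and from depleted cells (TRMT5 KD). All came from the same line, and the labels name no separate cultures.

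Most human genes are interrupted by introns, which the spliceosome removes. An intron nearly always begins with GU and ends with AG (GT and AG in the DNA), the donor and acceptor sites. A peak called along spliced mRNA therefore appears on the genome as blocks, which correspond to exons or parts of them, with gaps that correspond to introns. The first and last block of a peak end where the peak ends, while an interior block, with a gap on each side, is whole as the gene model draws it. A model that merges the exons of several transcripts can also leave a gap between alternative first exons, and such a gap need not be an intron of any transcript. m1G is a known mark of tRNAs, where TRMT5 makes it beside the anticodon.

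The values per peak are the authors': a fold, read as IP over input because of where it stands in a list without a header, and a false discovery rate (FDR). The list gives nothing for single libraries, and none of its columns is known to set knockdown beside control. No replicate stands behind any comparison below, none was tested, and depth is unknown. The intervals cover counting error over peaks only. Genes were named by position: an Ensembl gene ID took the name of the only RefSeq gene (GRCh38.p14) whose span held all its peaks, which named 2855 of the 3203 multi-block peaks (89.1%). A further 176 lay in several such spans and 172 in none. Where the reference gave a strand, 3072 of 3153 named IDs (97.4%) had the same strand in the list, and 15 named multi-block peaks had the opposite one. Of the markers of ductal and epithelial carcinoma, 4 of 8 had a named peak of either kind, with KRT8 alone having a multi-block peak. Of the markers of mesenchymal cells 1 of 4 had a named peak (CDH2), and of blood, endothelial, acinar and islet cells 0 of 8. A marker whose ID took no sole name counts as absent, and the share of all genes with a named peak was not measured.

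The edges of gaps could be read where a gap reached into a RefSeq sequence. The first set shows the donor side of the 6 gaps with the highest fold among the 56 whose sequence lay whole inside the window of a gene start, in a named gene, in a gap of at least 50 bases and on a chromosome whose sequence may be shown. Each line gives the 10 bases before the gap and then 20 of the gap, 5′ to 3′ on the strand of the gene, from RefSeq (GRCh38.p14), with the first 2 bases of the gap in capitals.
MTX1, chr1:155209323-155209352, plus strand: ggccgtgctgGTgaggggtggcgccggcgc
SIL1, chr5:138951768-138951797, minus strand: aaagaagaagGTgtgtttccatgcccttcc
POLE3, chr9:113410597-113410626, minus strand: aaataagttgGTgagaaggttcccgacgcg
TKFC, chr11:61333320-61333349, plus strand: ggcgggggagGTgcgccagtgtcctccgag
SLC39A1, chr1:153963577-153963606, minus strand: tcggtcgtggGTacgcggctcctgtggggg
SH3YL1, chr2:264522-264551, minus strand: gccgcgggagGTaaaggttacctatagggg
All 6 gaps begin with GT. In SLC39A1 the first block holds 5 bases, so the line starts upstream of the peak. The genes have unrelated roles, among them outer mitochondrial membrane import (MTX1), a nucleotide exchange factor of the endoplasmic reticulum (SIL1), a subunit of DNA polymerase epsilon (POLE3) and a zinc transporter (SLC39A1). The folds of these peaks ran from 11.3 in SH3YL1 to 14.9 in MTX1.

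Over all multi-block peaks, the first 2 bases of 90 gaps lay in a window of 300 bases at a RefSeq gene start (250 before and 50 after it). The letters were GT in 87 of them (96.7%, 95% Wilson interval 90.7 to 98.9). In the other 3, a gap of 18835 bases in DNER and one of 82 bases under ENSG00000130725 began with GC, and one of 27 bases under ENSG00000169727 with AA. By comparison GT followed the 3′ outer edge of 4 of 62 multi-block peaks (6.45%) and 9 of 185 single-block peaks (4.86%) that could be read in the same windows. GT made up 4.62% of all neighbouring base pairs in the 35116 windows of the table. The motif GT was searched on the strand of the gene only.

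At the other end of the gaps the letters differed. Of 105 gaps whose last 2 bases lay in such a window, 21 ended with AG (20%, 13.5 to 28.6). In 37 of the 105 the next block began exactly at a gene start of the table, which lists up to 12 starts for a gene, and 3 of these 37 gaps ended with AG (8.11%). Of the other 68, 18 ended with AG (26.5%). The windows were placed at gene starts, so these gaps are no sample of all 4004, and a share for gaps elsewhere was not measured. The 37 gaps made up 0.924% of all gaps. The second set shows the 15 bases before the block and the first 15 from its first base, which is in capitals, for the 6 such peaks with the highest fold in which the start belonged to the gene named for the peak.
SH3YL1, chr2:264378-264407, minus strand: tctcgcgcacgtggcGggctgtggtgcctg
SLC16A3, chr17:82232217-82232246, plus strand: tccttcaagggctggAgtcagttaggtaac
FAM193A, chr4:2625417-2625446, plus strand: ttgctcacacctgtcCacaatgacatgcag
PLCH2, chr1:2476274-2476303, plus strand: ctgggcggggctgagGtcctttgctccccc
SMTN, chr22:31084981-31085010, plus strand: cccgccctgcgccccAgcgtctggccgatt
HIP1R, chr12:122835442-122835471, plus strand: gggcccgggcgcggcGcggtggcctcgcgg
Only PLCH2 of these 6 has ag just before the capital. In SH3YL1 both ends of the same gap of 149 bases are shown: it begins with GT and is followed by a block that starts at a gene start. The peaks in SLC16A3, which encodes a lactate transporter, and SMTN, which encodes smoothelin, had folds of 10.1 and 8.17. A peak at the 5′ end of COL18A1, with a fold of 6.14, crossed a gap of 50048 bases to a block that began at the other listed start of that gene. Of the 37 starts, 25 were starts of the gene named for the ID. Exon annotation was not used here, so whether such a gap is an intron of a transcript was not tested.

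Introns can also host microRNAs, and RefSeq hairpins gave gap edges away from gene starts. A hairpin is the folded precursor from which short mature microRNAs are cut, and in a mirtron the excised intron itself is the hairpin. Of the hairpins in the RefSeq sequence table, 11 different ones lay whole inside a gap, and 6 on the strand of the peak reached an edge of a gap. All 6 had AG as the last bases of the gap, shown in capitals, and MIR6831 also had GU as the first.
MIR6831 in APBB3, chr5:140563671-140563751, minus strand: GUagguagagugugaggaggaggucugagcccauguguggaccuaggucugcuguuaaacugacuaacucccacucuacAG
MIR6815 in COL18A1, chr21:45478266-45478326, plus strand: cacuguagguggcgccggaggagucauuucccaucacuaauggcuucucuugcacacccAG
MIR4749 in PTOV1, chr19:49854591-49854651, plus strand: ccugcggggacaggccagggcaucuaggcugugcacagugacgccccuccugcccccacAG
MIR6781 in BECN1, chr17:42823880-42823943, minus strand: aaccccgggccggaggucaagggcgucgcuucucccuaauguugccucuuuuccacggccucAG
MIR3606 in COL3A1, chr2:188995630-188995692, plus strand: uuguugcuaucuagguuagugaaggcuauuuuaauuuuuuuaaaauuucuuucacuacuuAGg
MIR9898 in KRT8, chr12:52898889-52898984, minus strand: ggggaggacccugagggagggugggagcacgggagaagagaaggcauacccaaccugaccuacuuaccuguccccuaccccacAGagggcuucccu
The hairpin of MIR6831 and the gap of its host peak had the same first and last base and the same length of 81 bases. In MIR6815, MIR4749 and MIR6781 the hairpin ended with the gap, in MIR3606 1 base ran into the next block, and in MIR9898 the hairpin crossed into the KRT8 exon. The peaks around these gaps had folds from 3.00 in COL3A1 to 5.06 in COL18A1. They are peaks on the host RNA, whose blocks lie outside the hairpin or share only its end, and say nothing of the mature microRNAs.

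Most multi-block peaks crossed 1 gap. There were 2591 peaks with 2 blocks, 481 with 3, 100 with 4 and 22 with 5, and 9 with 6 to 12. Gaps numbered 4004 and ranged from 1 to 179158 bases with a median of 594.5 and quartiles of 185 and 1956.5. The commonest sizes were short: 386 gaps lay between 72 and 97 bases, the fullest class of the histogram. Gaps of at least 10000 bases made up 5.29% (212) and gaps under 50 bases 1.45% (58). By position of the peak along the gene, the median gap was 629 bases in the first 20% of the span from the 5′ end (651 gaps), 669 in the middle 20% (617) and 525 in the last 20% (1013).

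**Figure D1:**
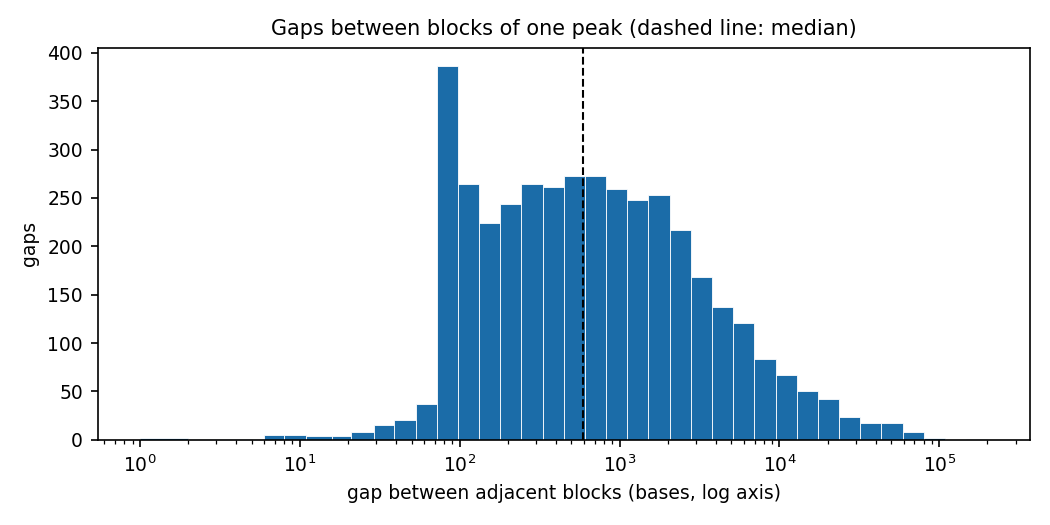
Number of gaps between adjacent blocks of one peak (vertical axis) by gap size in bases (horizontal log axis), for all 4004 gaps of the 3203 multi-block peaks. The fullest class, 72 to 97 bases, holds 386 gaps, and the dashed line marks the median of 594.5 bases.

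The 8 longest gaps in named genes ran from 69174 to 179158 bases. PARD3, which encodes a cell polarity scaffold, had a peak of 101 exonic bases in blocks of 55 and 46 bases that stood 179158 bases apart (fold 5.42). ITGBL1 followed with 94285 bases (fold 4.90), COL26A1 with 85294 (2.03) and RPS10-NUDT3, a readthrough gene of a ribosomal protein and a hydrolase, with 76396 (6.23). ENAH, an actin regulator, had a gap of 72428 bases (3.30), CHCHD6, a component of mitochondrial cristae junctions, 72213 (2.86) and CBFA2T2, a transcriptional corepressor, 72032 (14.2). IGFBP7-AS1, an antisense RNA, was the last of these with 69174 (2.39). The gap in RPS10-NUDT3 led into a last block of only 2 bases, and that in ENAH followed a first block of 7 bases. Beside the other long gaps the blocks held at least 17 bases, the size of the last block in CHCHD6.  At the other extreme 12 gaps were shorter than 10 bases, among them 1 base in DBN1 and MARCHF2 and 9 bases in APLP1 and TAF10. Such gaps are shorter than introns are known to be.

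First and last blocks had medians of 63 and 56 bases, and the 801 interior blocks had a median of 93 bases (quartiles 63 and 128). In the 2591 peaks with 2 blocks the smaller block had a median of 34 bases, was under 10 bases in 352 (13.6%) and at least 20 bases in 1882 (72.6%). The 5′ block was the longer one in 1364 (52.6%, 50.7 to 54.6). Among 2-block peaks of 90 to 110 exonic bases, the median fold was 3.74 where the smaller block was under 10 bases (236 peaks), 3.66 at 10 to 19 bases (245) and 3.51 at 20 or more (874). The quartiles of these groups overlapped almost entirely, from 2.61 to 5.52 in the first and from 2.43 to 5.64 in the last.

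The peaks with the most blocks lay in collagen genes. Of the 9 peaks with 6 or more blocks, 7 were in COL5A2, COL11A1, COL9A3 and COL18A1, and the others in NKD2, an inhibitor of Wnt signalling, and AGRN, which encodes the basement membrane proteoglycan agrin. Fibrillar collagen chains repeat glycine and 2 further residues, so that 1 repeat takes 9 bases. Their genes are known for many small exons of 54 or 45 bases or combinations of these. The peak with the most blocks, 12, lay in COL5A2 (chromosome 2, 189068839 to 189088734, minus strand), covered 599 exonic bases over 19896 bases of the genome and had a fold of 5.07. From 5′ to 3′ its blocks held 40, 45, 54, 54, 54, 54, 54, 45, 54, 45, 54 and 46 bases. Every interior block of it was 45 or 54 bases. A second COL5A2 peak (189062891 to 189066731) had a fold of 9.30 and blocks of 3, 108, 54, 99, 54, 99, 54 and 28 bases. The peak of 10 blocks in COL11A1 (chromosome 1, 103002472 to 103012439, minus strand, fold 3.61) had 27, 54, 54, 54, 54, 54, 45, 54, 45 and 10 bases.

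COL9A3 (chromosome 20, plus strand) had peaks of 9 blocks at 62826213 to 62829801 and of 7 blocks at 62817575 to 62821518, with folds of 14.6 and 13.2. The first of them held 45, 54, 54, 54, 54, 54, 45, 54 and 36 bases, and the second 61, 80, 36, 72, 54, 36 and 12. NKD2, outside the family, had 8 blocks of 21, 80, 61, 128, 195, 148, 85 and 23 bases (chromosome 5, 1009194 to 1035827, plus strand, fold 5.43) and the longest exonic length of any multi-block peak, 741 bases. The 6 blocks of the AGRN peak held 10, 97, 165, 112, 12 and 103 bases (chromosome 1, 1050028 to 1051355, plus strand, fold 4.53). No regular size recurred in NKD2 or AGRN.

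**Figure D2:**
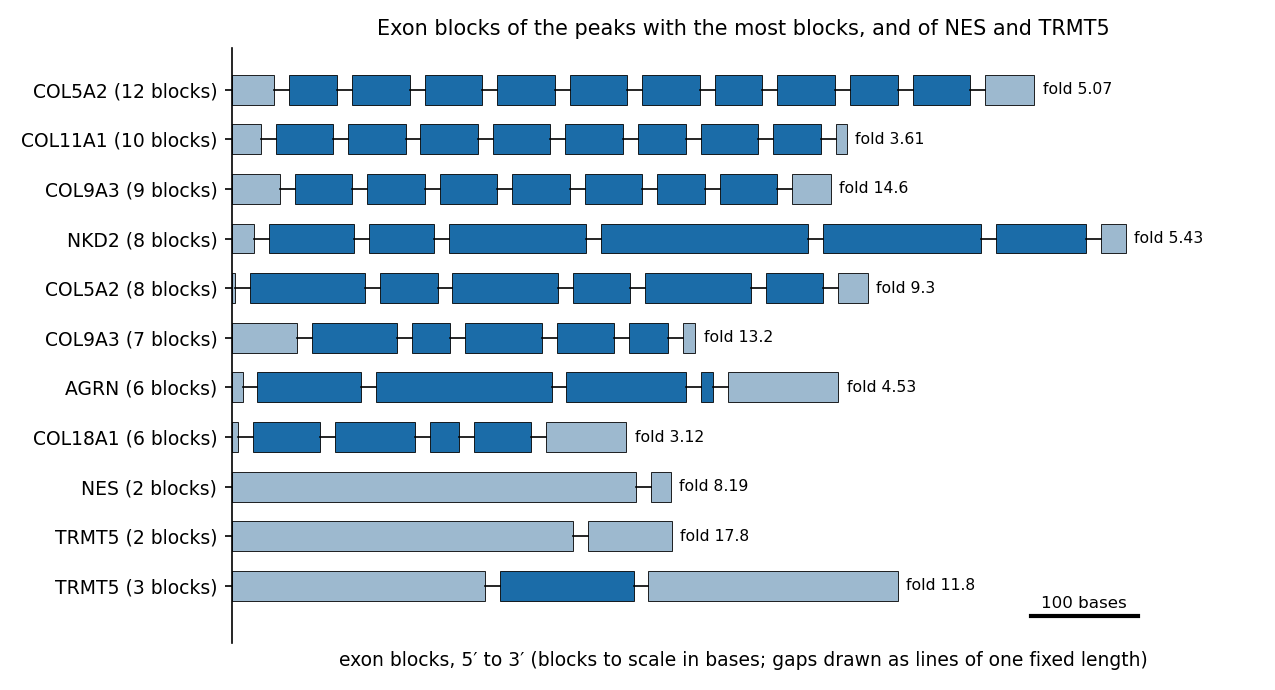
Exon blocks, 5′ to 3′ from left to right, of the 8 named peaks with the most blocks and of the multi-block peaks in NES and TRMT5. Block widths are to scale (bar, 100 bases), gaps are lines of one fixed length, darker blocks are interior, and the text gives the authors' fold. The interior blocks of the COL5A2 peak with 12 blocks and of the COL11A1 peak are of 2 near-equal sizes, 45 and 54 bases.

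Over all 14 collagen genes with a named peak, a group formed after the block sizes were seen, 56 of 63 peaks had several blocks (88.9%, 78.8 to 94.5), against 34.2% over all named peaks, and 34 had 3 or more. They held 85 interior blocks in 11 genes. Of these, 78 were multiples of 9 bases (91.8%, 84.0 to 96.0), against 94 of 716 in other genes (13.1%, 10.9 to 15.8) and 11.1% of whole numbers. Blocks of 54 bases numbered 41 of 85 (48.2%) and 7 of 716 (0.978%). Among the other genes 287 interior blocks were multiples of 3 (40.1%, 36.6 to 43.7), against 33.3% of whole numbers. The gene model fixes these sizes, so they show which exons the peaks spanned and not how the RNA was bound. COL5A2 had 21 interior blocks (13 of 54 bases), COL11A1 15 (12), COL18A1 14 (1), COL9A3 12 (7) and COL3A1 7 (3). The group holds fibrillar and non-fibrillar collagens, and the sizes were not split by type. In the 6 blocks of COL18A1 at 45492708 to 45495432 the interior ones held 63, 75, 27 and 54 bases. Multi-block folds in the collagens ran from 1.59 in COL1A1 to 15.5 in COL6A1 with a median of 3.81, against 4.29 over all multi-block peaks. The 7 single-block peaks of the collagens had a lower median fold, 2.6.

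**Figure D3:**
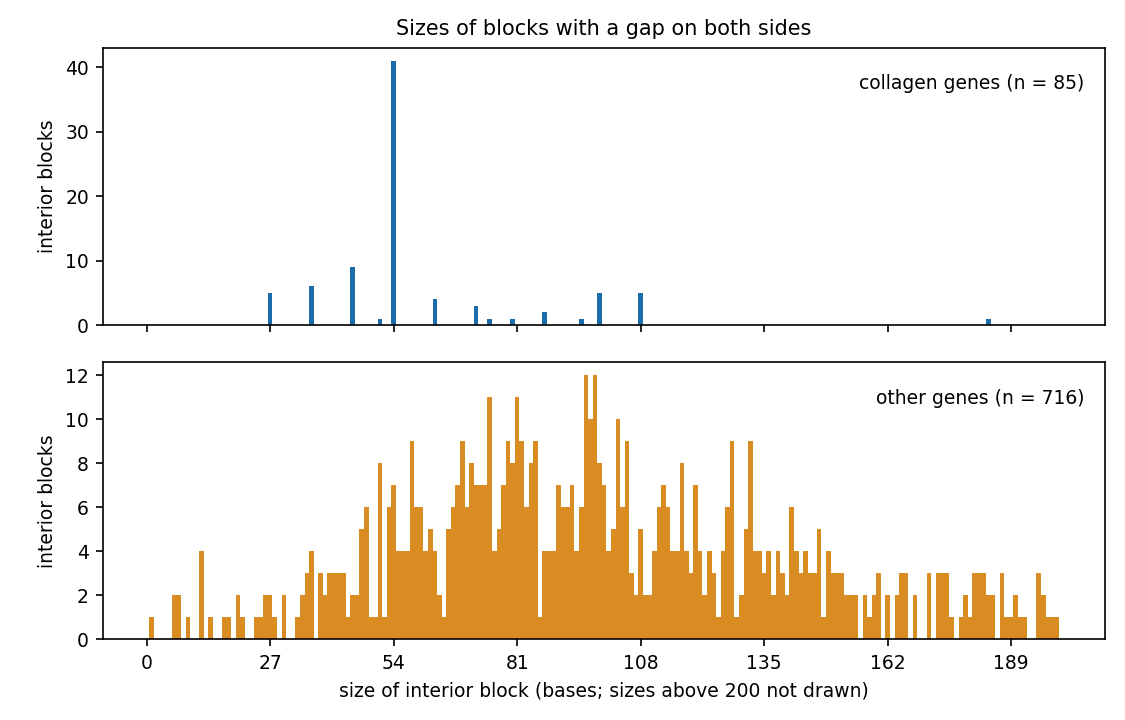
Number of interior blocks (vertical axes) by size in bases (horizontal axis) in collagen genes (upper, 85 blocks) and in all other genes (lower, 716 blocks, those above 200 bases not drawn). In the collagen genes 41 blocks stand at 54 bases, while sizes in the other genes spread around a median of 97 bases.

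Multi-block peaks were longer than peaks of 1 block and lay less often in the first and last 20% of the gene span. Their exonic length had a median of 150 bases (quartiles 101 and 200), against 101 (100 and 151) for single-block peaks. Lengths fell within 2 bases of a multiple of 50 in 96.6% of multi-block and 98% of single-block peaks. The median length was 101 bases with 2 blocks, 200 with 3 and 299 with 4 or more. A longer peak can have more room to cross a gap, and block count and length are not independent. The part of this in the length difference was not tested.

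The median relative position along the gene span, where 0 is the 5′ end and 1 the 3′ end, was 0.604 for 2855 named multi-block peaks and 0.713 for 5490 single-block peaks. In the last 20% of the span lay 28.0% of the multi-block peaks (26.3 to 29.6) and 42.7% of the single-block ones (41.4 to 44.0), a difference of -14.7 percentage points (-16.8 to -12.6). In the first 20% lay 19.2% and 25%. The middle 20% held 17.2% and 9.89%. Turned round, 47.5% of the peaks in the middle 20% had several blocks, against 28.6% in the first 20% and 25.4% in the last 20%. The median distance from the peak to the 3′ end of the span was 10761 bases for multi-block and 4780.5 for single-block peaks. The gene spans, counted once per peak and not once per gene, had medians of 30908 and 26104 bases. Positions count introns, and last exons are usually the longest of a gene. The part of exon length in this difference was not tested.

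**Figure D4:**
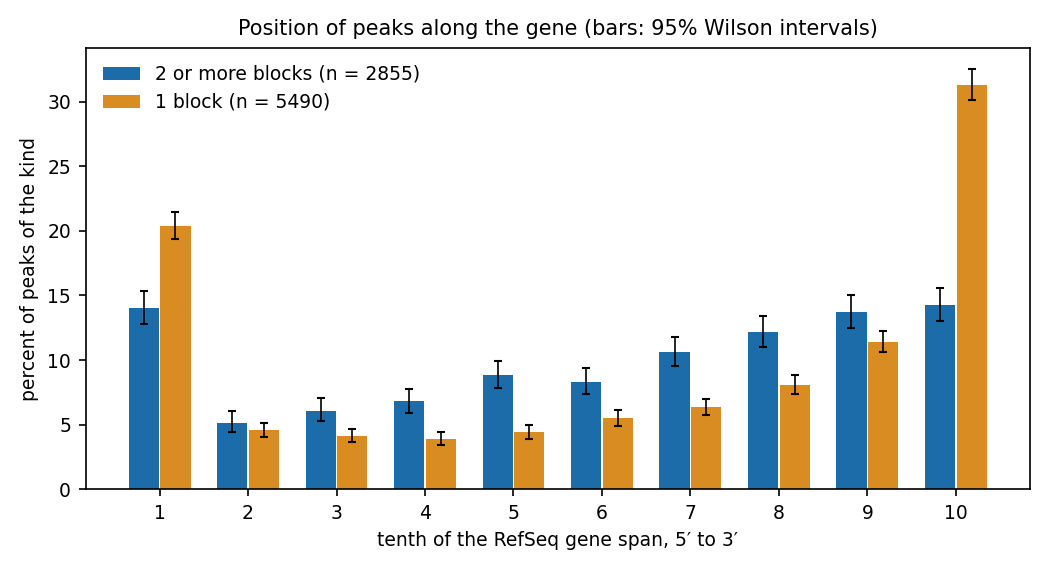
Percent of peaks of each kind (vertical axis) in steps of 10% of the RefSeq gene span from 5′ to 3′ (horizontal axis), with 95% Wilson intervals. The last 10% of the span holds 31.3% of single-block peaks and 14.3% of multi-block peaks, and the first 10% holds 20.4% and 14%.

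The fold of multi-block peaks was slightly below that of single-block peaks. Its median was 4.29 (quartiles 2.87 and 6.69, range 1.00 to 43.8) against 4.61 (3.02 and 7.15, range 1.06 to 61.5), and 45.5% of multi-block peaks lay above the single-block median (43.8 to 47.2). Folds of 10 or more had 10.4% and 12.8%, a difference of -2.41 points (-3.72 to -1.04). The median fold was higher in longer classes of both kinds, so peaks of like length were set side by side. At 90 to 110 bases the medians were 3.58 (1434 peaks) and 4.17 (3786), at 140 to 160 bases 4.21 and 4.81, at 190 to 210 bases 5.11 and 5.30, and at 240 or more bases 6.05 and 6.56. The multi-block median was the lower one in each of these 4 classes, while the quartiles overlapped widely. Of the 612 peaks of 3 or more blocks, taken alone and not matched for length, 52.3% lay above the single-block median.

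**Figure D5:**
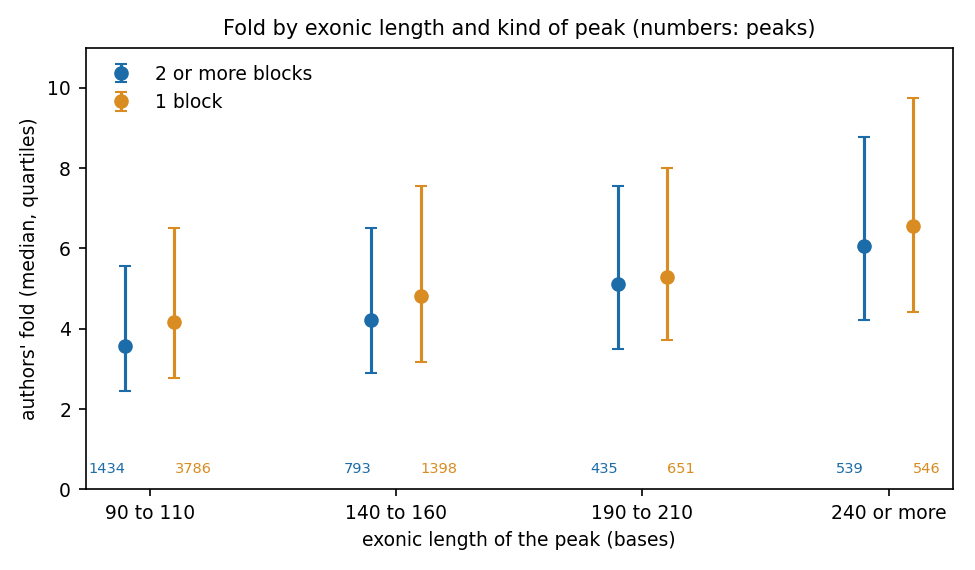
Authors' fold (vertical axis; points are medians, bars quartiles) by exonic length class in bases (horizontal axis) for peaks of 2 or more blocks and of 1 block, with the number of peaks at the foot. In the shortest class the medians are 3.58 and 4.17, and in the longest 6.05 and 6.56.

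The same direction was seen within genes. Multi-block peaks lay under 2172 gene IDs, of which 883 had no other kind of peak and 1289 also had a single-block peak. Taking the highest fold of each kind, the multi-block peak was the higher in 541 of the 1289 (42.0%, 39.3 to 44.7), with a median log2 difference of -0.29 (quartiles -1.09 and 0.57). A highest fold depends on how many peaks a gene has of that kind, and these numbers were not matched. With the median fold of each kind the share was 45.9% (43.2 to 48.7). In the 420 IDs with exactly 1 peak of each kind the multi-block peak was the higher in 191 (45.5%, 40.8 to 50.3), an interval that includes equal shares. An FDR under 0.01 was reached by 2955 of 3203 multi-block peaks (92.3%), beside 91.8% of all 9585 peaks, and the difference between the kinds was 0.687 points (-0.490 to 1.81).

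TRMT5, the depleted gene and the tRNA methyltransferase that gives the study its name, had 3 peaks, 2 of them with several blocks. The one with 2 blocks of 320 and 79 bases (chromosome 14, 60975116 to 60975794, minus strand) had a fold of 17.8, which ranked 55 of 3203, and a gap of 280 bases. The other had 3 blocks of 238, 125 and 234 bases with gaps of 1592 and 1387 bases (60975893 to 60979468) and a fold of 11.8, rank 210. NES, the gene of the intermediate filament nestin, had 1 multi-block peak among 8. It lay near the 5′ end (chromosome 1, 156675322 to 156676860, minus strand), had blocks of 379 and 19 bases around a gap of 1141 bases, and a fold of 8.19 (rank 538). The study chose both genes, and the siRNA targeted TRMT5. The sources used here do not say which libraries entered the calling.

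In the 5 named multi-block peaks with the highest folds the smallest block held 4 to 12 bases. TMEM276-ZFTRAF1 led with 43.8, in blocks of 393 and 8 bases (chromosome 8, 144457921 to 144462675). That name came from position and is that of a readthrough gene. Whether the ID belongs to a single gene within it was not checked. SCRIB, an epithelial polarity scaffold, had 43.5 (140 and 11 bases, chromosome 8, 143803432 to 143803657) and NARS1, the asparaginyl-tRNA synthetase, 40.7 (139 and 12 bases, chromosome 18, 57607527 to 57609368). APLP1, a relative of the amyloid precursor protein, had 40.3 over 5 blocks from 4 to 144 bases (chromosome 19, 35878633 to 35879346). The transcription factor gene SOX18 followed with 36.1 (138 and 10 bases).

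In the other described peaks of high fold the smallest block varied from 13 to 118 bases. TOM1, an endosomal sorting gene, had 33.5 (blocks of 113 and 37 bases) and the calpain protease CAPN2 31.7 (83 and 18). The hnRNP gene HNRNPK had 30.6 with blocks of 85 and 66 bases around a gap of 77 bases (chromosome 9, 83970735 to 83970962). Pseudogene copies of HNRNPK can share its reads, so this peak is uncertain, and their part in it was not tested. The kinesin KIF1A had 30 over 3 blocks of 42, 146 and 13 bases, UQCR11, a subunit of respiratory complex III, 29.3 (108 and 42) and WSB2 28.5 (132 and 118). At the median fold of 4.29 stood ANAPC2 of the anaphase-promoting complex, MRPL34 of the mitochondrial ribosome, the semaphorin receptor PLXNA3 and the ubiquitin ligase RNF123, each with 2 blocks.

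Multi-block peaks were counted per gene ID. Of the 2172 IDs, 1520 had 1 such peak and 443 had 2. AGRN and the laminin chain LAMA5 had the most, 10 each of 14 peaks. In AGRN their folds ran from 1.19 to 12.4 along positions 0.00622 to 0.956. In LAMA5 they ran from 3.39 to 18.4, with the highest at 62322274 to 62322732 on chromosome 20 in blocks that summed to 251 bases. COL18A1 had 9 of 11 (1.71 to 7.33) and COL11A1 8 of 8 (1.62 to 8.91). INTS1, the largest subunit of the Integrator complex, had 8 of 9 (1.45 to 8.40). MRC2, a collagen uptake receptor, had 8 (1.84 to 11) and 5 single-block peaks, 2 of which belonged to an ID on the opposite strand that the naming by position placed in MRC2. SBF1, a gene of a myotubularin-related protein, and KMT2D, a histone methyltransferase gene, also had 8. All 8 of INTS1 and all 8 of MRC2 had 2 blocks, whereas those of COL11A1 reached 10.

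Groups of genes differed in how many of their peaks had several blocks, beside 34.2% of all 8345 named peaks. In the list of basement membrane and collagen genes 58 of 86 peaks did (67.4%), with COL6A1 at 15.5 after LAMA5 (18.4). They lay in 12 of its 20 genes, of which 13 had a named peak, beside 1880 of all 3711 genes with a named peak. AGRN and LAMA5 gave 10 each of the 58 and COL18A1 gave 9. The collagens of this list were also counted in the collagen group above. Among receptors with many exons 40 of 80 peaks had several blocks (50%). This list was chosen for many exons, which bear on the share in advance. Its folds were 27.6 in the ephrin receptor EPHB4, 13.6 in the adhesion receptor CELSR2 and 9.78 in the integrin ITGA3. Filamins, spectrins and cytolinkers, whose genes mix short and very long exons, had 31 of 93 (33.3%), with 10.5 in the filamin FLNA, 8.03 in the crosslinker MACF1 and 7.02 in the talin TLN1. Cytosolic aminoacyl-tRNA synthetases had 13 of 24 (54.2%), with 15.6 in VARS1 and 6.68 in CARS1 after NARS1. Genes of glycolysis had 14 of 28 (50%), with 15.3 and 14.5 in the phosphofructokinase genes PFKL and PFKM and 10.2 in TPI1. Of the peaks in spliceosome and hnRNP genes 21 of 46 had several blocks (45.7%), with 14.9 in SF3B2 and 8.71 in SF3B3 after HNRNPK (30.6).

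Smaller numbers stood in the remaining lists. Cytosolic ribosomal protein genes had 5 of 20 (25%) in RPS9 (11.8), RPL3 (8.91), RPS16 (7.54) and 1 further gene. tRNA modification enzymes had 8 of 24 (33.3%) in 4 genes, with 9.90 in the 2′-O-methyltransferase FTSJ1 and 9.69 in TRMT1 after TRMT5. The chaperonin TRiC had 2 of 6, in CCT2 (4.82) and CCT7 (2.71). Of 23 peaks in 10 mostly intronless genes 0 had several blocks, which exon structure fixes in advance. The marker genes gave a peak of 2 blocks with a fold of 3.27 in KRT8 and one of 12.6 in CDH2, which encodes N-cadherin. Each list was small, and no difference between lists was tested.

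The median fold of multi-block peaks was above that of single-block peaks in 5 lists and below it in 4, beside 4.27 and 4.6 over all named peaks. The medians were 5.24 and 3.55 in the synthetases, 4.93 and 3.73 in glycolysis, and 4.84 and 4.22 in spliceosome and hnRNP genes. They were 7.54 and 3.95 in ribosomal protein genes and 9.45 and 4.99 in tRNA modification enzymes, where the multi-block peaks numbered 5 and 8 and those of TRMT5 are included in the second. In the other direction the basement membrane and collagen list had 4.63 and 5.21, the filamin list 3.93 and 4.00, the receptors 3.85 and 4.02, and TRiC 3.77 and 4.27.

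A second list, of MACS2 summits, gives single positions with a −log10 q value. A summit lay inside a block of 218 multi-block peaks (6.81%, 5.98 to 7.73) and of 453 single-block peaks (7.10%, 6.49 to 7.75), a difference of -0.292 points (-1.34 to 0.813). Among peaks of 150 or more bases the shares were 10.9% and 15.9% (difference -4.99 points, -7.07 to -2.86). Within 150 bases of a block the shares were 30.1% and 23.1%, where a multi-block peak has more edges to lie near. A summit inside a gap was found for 593 multi-block peaks (18.5%). Gaps cover more bases than blocks, with a median sum of 799 per peak against 150 exonic bases. This share can therefore not be set beside the share for blocks, and summits per base of gap were not measured. In the 153 peaks of 2 blocks that held a summit, the strongest one lay in the larger block in 128 (83.7%, 77.0 to 88.7), and the larger block made up a mean of 75.5% of their exonic bases. The strongest summits in named multi-block peaks had −log10 q of 83.8 in TPI1, a glycolytic enzyme gene, 81.9 in COL18A1, 73.8 in the integrin ITGB5, 70.9 in the fatty acid synthase FASN and 66.2 in PLEKHG2. These summits lay at position 6869123 of chromosome 12, 45479927 of chromosome 21, 124796790 of chromosome 3, 82083381 of chromosome 17 and 39415020 of chromosome 19. Both lists may come from the same libraries, and their overlap is then no independent evidence.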

How the data were processed

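Both files are peak lists of the whole series. STAR 2.7.1, MACS2 2.2.5, bedtools, ChIPseeker and GRCh38 are among the names in the submitters' processing notes, with no role or order. Calling settings and pooling: not given in the sources used here. In the MetDiff list, the deposited columns hold a p-value (not used further), an FDR as log10, a ratio (fold) and block counts, sizes and starts. The deposited MACS2 column was read as the −log10 of q-values. Other columns besides positions, names and strand were not used. Starts were converted to count from 1. A peak's position is that of its middle exonic base. Python 3.11.15, pandas 2.3.3, NumPy 2.4.6 and SciPy 1.17.1 were used, and the code was tested on simulated blocks. Shares have 95% Wilson intervals and differences of shares Newcombe intervals. Named genes are TRMT5, NES and, among named multi-block peaks, the 12 of highest fold, 8 of most blocks, 8 of longest gap, 4 nearest the median fold, the 6 genes with most such peaks and up to 3 genes of each list; others were chosen after their values were seen. A gene that the rule names is not reported here. The members and lists were chosen with earlier results of these data known. Exon annotation and the genome were not used here.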

Additional observations from a re-analysis of the deposited data

How the results depend on the processing

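No paired analysis was possible because the lists hold no value per library and no result comes from a test. With 1 peak per gene ID and kind, the multi-block share was 37.4%, the share of multi-block peaks longer than the single-block median 57.6% (55.2% over all peaks), that above the single-block median fold 39.8%, that nearer the 5′ end than the single-block median position 54.7% (61.1% over all peaks), the difference in the last 20% of the span -11.6 points and that in summits inside blocks -1.98 points. Requiring 20 bases in the second largest block gave 27.7% multi-block peaks, 62.2% longer and a summit difference of 0.434 points. Requiring 3 or more blocks gave 8.75% multi-block peaks, 87.1% longer, 52.3% above the median fold (reversed), an FDR difference of 2.55 points and a summit difference of 3.52 points. At 90 to 110 exonic bases 40.6% lay above the median fold, and the FDR and summit differences were -0.815 and 0.332 points. The summit difference was 7.02 points within 150 bases of a block and 0.263 points for summits with −log10 q of at least 10. Its sign thus changed under 5 alternatives, and the cause was not tested. With the median fold of each kind, 45.9% of genes with both kinds were higher in the multi-block peak. With the FDR under 0.01, the position results of the largest block and of sole protein-coding genes, and gaps of at least 50 bases, values stayed inside the interval of the main value. Depth is unknown.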

Other observations

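Gaps sometimes held other genes. Of the 4004 gaps, 85 in 84 peaks contained the whole span of another RefSeq gene, mostly pseudogenes (44), long non-coding RNAs (17), microRNAs (14) and small nucleolar RNAs (14). Protein-coding genes lay whole inside 9 gaps, among them ZNF750, a transcription factor gene of epidermal differentiation, in a gap of 43584 bases in TBCD, and the stress response factor ATF5 in a gap of 42006 bases under ENSG00000269179. MRPS12 and MRPL40, which encode proteins of the mitochondrial ribosome, lay in gaps of 16382 and 15644 bases. These genes were picked after they were seen.

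GUSBP11 was the name by position for 2 gene IDs whose 2-block peaks had exactly the same blocks (chromosome 22, 23715122 to 23717157) and the same fold of 11.1, so that region is counted under both IDs. The FDR of a peak was also that of another peak of its gene ID in 642 multi-block peaks (20%) and in 19.7% of the single-block ones. All 8 COL11A1 peaks are multi-block, and 6 of them share an FDR of 4.68e-05.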
